A study of Mus musculus with 8 samples.

Results

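The genes described here encode subunits of the mitochondrial respiratory chain, in mouse liver. They were taken by symbol from the table of gene counts: the mitochondrially encoded subunits (names beginning mt-Nd, mt-Co, mt-Cytb or mt-Atp) and the nuclear genes Ndufa, Ndufb, Ndufc, Ndufs and Ndufv followed by a number. The rule found 49 of the 22155 genes, of which 13 were mitochondrially and 36 nuclear encoded. Of the 36 nuclear genes, 35 encode subunits of complex I, and Ndufa4 was first described as such and is now assigned to complex IV. After a filter on low counts, 44 members were tested, all 36 nuclear ones and 8 mitochondrial ones. Of the 5 that were not, 3 had no count in any library.

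RNA was sequenced from the livers of C57BL/6 mice aged 8 to 10 weeks by label, in 8 libraries that form 4 groups of 2. Yap controls carried floxed Yap1 alleles and received an AAV8 virus with GFP, and Yap1 knockouts received AAV8-iCre, which deletes Yap1 in hepatocytes only. Ctgf controls were floxed for Ctgf and Ctgf knockouts were conditional knockouts, and the sources used here do not name the Cre driver. All groups shared a Lieber-DeCarli ethanol diet, at 1% for 2 days and 2% for 10 days, and carbon tetrachloride (1 µl per g, injected 2 days before sacrifice), so there was no uninjured group. The Yap line received a virus and the Ctgf line did not by label, so that line, floxed allele and virus cannot be told apart between the control groups.

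The respiratory chain passes electrons from NADH and succinate to oxygen and pumps protons across the inner mitochondrial membrane, and ATP synthase (complex V) uses the proton gradient to make ATP. Complex I, the entry point for NADH, is built from both genomes. Its mt-Nd subunits form the core of the membrane arm and are transcribed from mitochondrial DNA as parts of long polycistronic RNAs, whereas its Nduf subunits are transcribed in the nucleus and imported as proteins. Hepatocytes are rich in mitochondria, and both ethanol oxidation and fatty acid oxidation feed NADH into this complex.

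Total counts per library ran from 26904021 to 33488609. In CPM (counts scaled to a TMM-adjusted library size), Yap1 had a level of 107 in Yap control 1, 76.1 in Yap control 2, and 31.0 and 32.5 in the livers given Cre. Ctgf stood at 8.02 CPM in Ctgf knockout 1 but at 49.2 CPM in the library labelled Ctgf knockout 2, against 28.8 and 32.1 CPM in the Ctgf controls. Yap control 2 held 12 exocrine pancreas markers at a summed 12205 CPM, where the other libraries held 3.13 to 7.48 CPM. The summed level of 8 hepatocyte markers was 78376 CPM in Yap control 2 and 82132 CPM in the library labelled Ctgf knockout 2, against 40966 to 56517 CPM in the other 6 libraries. All 8 hepatocyte markers were detected. Alb made up most of these 2 sums (55345 and 69274 CPM), and not all markers followed it. In Yap control 2, Apoa1 (13879 CPM) and Ttr (3734 CPM) were the highest of the 8 libraries and Cps1 was the lowest (1059 CPM). Cyp2e1 (394 CPM) was the highest of the Yap line there but lay below every Ctgf line library. Serpina1c was higher in Yap control 2 than in Yap control 1, and Hnf4a and Pck1 were lower. Yap control 2 and the library labelled Ctgf knockout 2 stand apart in the values below. The members' medians and counts are therefore given with and without them, as are several single genes. A lower level in these bulk samples can mean fewer cells of a type or less RNA per cell, which cannot be told apart.

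The mitochondrial members fell into 2 sets by count, alike in all 4 groups. mt-Co2, mt-Atp8 and mt-Nd4l had 0 counts in all 8 libraries, which allows at most 0.0830 to 0.123 CPM per library (3 counts, counting error only). mt-Co3, a core subunit of complex IV, had 1 count in 1 library, and mt-Atp6, a complex V subunit, had 0 to 2 counts per library. mt-Nd3, a small core subunit of complex I, had 15 and 10 counts in the Yap controls, 30 and 8 in the Yap1 knockouts, 4 and 9 in the Ctgf controls, and 11 and 15 in those labelled Ctgf knockout. These 6 genes lie next to each other in the mitochondrial genome, and the lowest value of any other mitochondrial member in any library was 250 CPM (mt-Nd6).

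The same stretch is present in the nuclear genome. In the GENCODE annotation of GRCm38, 7 unprocessed pseudogenes on chromosome 1 (chr1:24611535-24616184, minus strand) copy the mitochondrial genome from the end of mt-Co1 to the first part of mt-Nd4 (chrM:6394-11042). The copied parts of the annotated transcripts were identical to the mitochondrial ones over their whole aligned length, which was 681 bases in mt-Co2, 783 in mt-Co3 and 678 in mt-Atp6. mt-Atp8 has no annotated copy of its own and lies within the copied stretch. None of the 7 copies was a line of the count table. The stretches below show where the copy begins and how it differs from a copy on chromosome 2. Capitals mark the bases that differ between the members of a pair, and positions count from 1 at the first base of the mitochondrial gene.
mt-Co1 (bases 1058 to 1117, chrM:6385-6444, plus strand): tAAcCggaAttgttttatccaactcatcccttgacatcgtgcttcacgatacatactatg
Gm29216 (the copy, chr1:24616134-24616193, minus strand): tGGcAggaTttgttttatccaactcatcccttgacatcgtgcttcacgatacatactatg
mt-Co2 (bases 1 to 60, chrM:7013-7072, plus strand): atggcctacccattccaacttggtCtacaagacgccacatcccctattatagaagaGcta
Gm13341 (another copy, chr2:22587903-22587962, minus strand): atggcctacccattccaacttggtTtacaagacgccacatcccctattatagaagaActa
mt-Co2 (the same bases, chrM:7013-7072): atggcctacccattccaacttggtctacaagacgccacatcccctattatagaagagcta
Gm28661 (the chromosome 1 copy, chr1:24615506-24615565, minus strand): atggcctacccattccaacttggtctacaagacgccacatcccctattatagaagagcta
At the edge of the copy, mt-Co1 and Gm29216 differed at 4 bases (A1059G, A1060G, C1062A and A1066T, mitochondrial base first), and downstream of these no difference remained. The chromosome 2 copy of mt-Co2 differed at 2 of the bases shown (C25T and G57A), so that either base tells mt-Co2 from this copy, whereas no aligned base tells it from the chromosome 1 copy.

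The share of a gene's 50-base windows that occur in another annotated gene followed the counts. It was 100% in mt-Co2, 99.9% in mt-Co3, 99.5% in mt-Atp6, 98.8% in mt-Nd4l and 98.0% in mt-Nd3, the members with 0 to 30 counts. It was 62.2% in mt-Nd4 and 51.1% in mt-Co1, which are copied in part, and at most 8.19% in mt-Nd1, mt-Nd2, mt-Nd5, mt-Nd6 and mt-Cytb. mt-Atp8, at 0%, was the exception, and the annotation names no transcript across its copy. The sources used here do not say how reads with several equally good places were counted, and whether they were left out was not tested. No level or change is read from these 6 genes. Their few counts are part of the summed counts, but medians and counts by direction cover the 7 well counted mitochondrial members, although mt-Nd3 was among those tested. mt-Co1 and mt-Nd4 may be counted over part of their length.

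**Figure D1:**
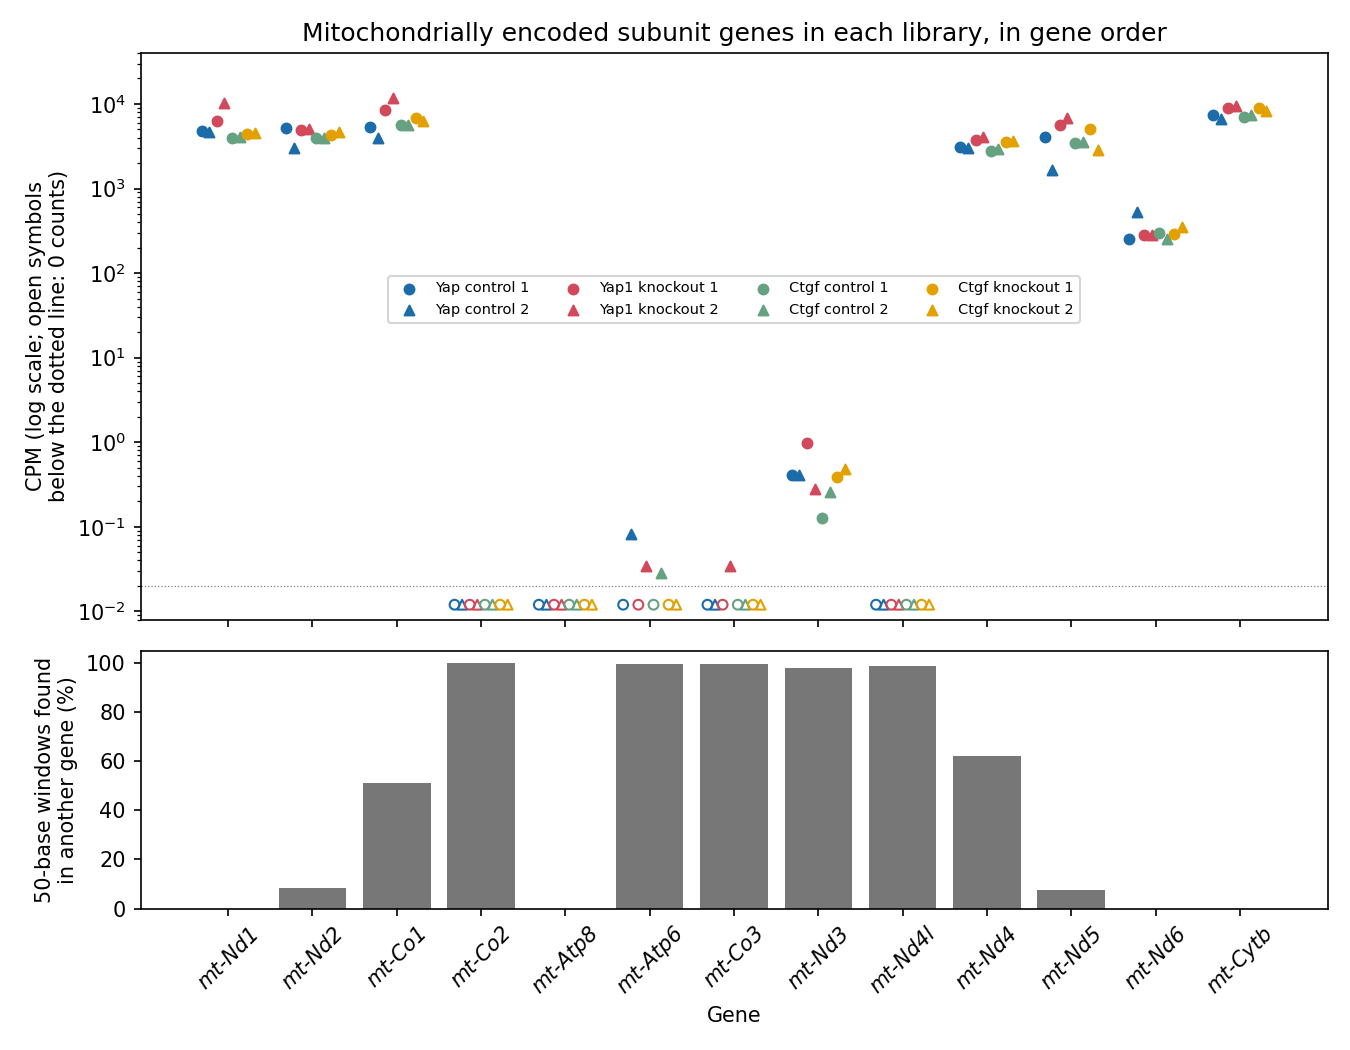
Level of each mitochondrially encoded member in each library (upper panel, CPM on a log axis, open symbols for 0 counts) and the percent of its 50-base windows that occur in another annotated gene (lower panel), in gene order. The run from mt-Co2 to mt-Nd4l sits below 1 CPM in every library, and its members other than mt-Atp8 share 98.0% or more of their windows.

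Per kilobase of transcript, the 7 well counted mitochondrial members stood above every nuclear member. mt-Cytb, the mitochondrial subunit of complex III, had the highest mean level over the 8 libraries, 6997 CPM per kb (5836 to 8342). It was followed by mt-Nd1 at 5607 CPM per kb (4148 to 10816), mt-Co1, the catalytic subunit of complex IV, at 4364 (2574 to 7559) and mt-Nd2 at 4213 (2885 to 4951). Neighbours in this order overlapped over the libraries. mt-Nd4 (2447 CPM per kb, 2041 to 2986) and mt-Nd5 (2261, 903 to 3703) overlapped as well. If all counts of mt-Co1 and mt-Nd4 came from outside the copied parts (1066 and 502 bases), their levels would be 6326 and 6718 CPM per kb, so their place in the order depends on the copy. mt-Nd6, the sole protein gene on the other strand and in human cells a transcript without a poly(A) tail, was lowest at 609 CPM per kb (481 to 1014). It overlaps the end of mt-Nd5 by 14 bases on the opposite strand, and the sources used here do not give the strand setting of the counting.

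Nuclear members spanned 5.29 to 222 CPM per kb. Ndufa4 was highest at 222 CPM per kb (163 to 335), followed by Ndufb9 at 161 and Ndufa6, an accessory subunit of complex I, at 146. Ndufb4 was lowest at 5.29 CPM per kb, and 37% of its windows also occur in other genes, foremost Ndufb4c, so its counts are uncertain. The same holds for Ndufs3 (35.8% of windows, foremost in Gm12251), Ndufs5 (31.1%, in BC002163) and Ndufa12 (26.2%, in Gm15920). Among the 7 nuclear core subunits, which carry the NADH site, the iron-sulfur clusters and the quinone site, Ndufs3 was lowest at 24.6 CPM per kb. Ndufs1, the largest subunit of complex I, stood at 36.1 CPM per kb.

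In the Yap1 knockouts the 2 genomes' transcripts pointed in opposite directions, but no member passed the test. With edgeR (quasi-likelihood test, Benjamini-Hochberg adjusted over all 13999 genes), 0 of 44 members had an adjusted p under 0.05, where 0.0286% of all genes did. At an unadjusted p under 0.05 there were 3 members (mt-Co1, mt-Nd1 and mt-Nd5) of 44, where 13.8% of all genes had one. DESeq2 called 1 member (mt-Co1), where it called 3.82% of all genes. The log2 fold change of knockout over control was above 0 in 6 of the 7 well counted mitochondrial members, with a median of 0.39. It was below 0 in 34 of 36 nuclear members, with a median of -0.40, and the median of all genes tested was -0.00. The nuclear direction rested on Yap control 2, as the values without it show further on.

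mt-Co1 (chrM:5328-6872) had 5285 and 3977 CPM in the Yap controls and 8518 and 11679 CPM in the Yap1 knockouts. Both knockouts lay above both controls, and edgeR estimated the log2 fold change as 1.12 (SE 0.299), which did not pass (adjusted p = 0.203). DESeq2 gave 1.11 and an adjusted p of 0.00132. mt-Nd1, which lies at the membrane end of the quinone channel of complex I, had 4746 and 4654 CPM in the controls and 6263 and 10351 CPM in the knockouts. Its groups did not overlap either, and the knockouts differed from each other by more than the knockout with the lower level differed from the controls (log2 fold change 0.82 with SE 0.307, adjusted p = 0.318 in edgeR). mt-Nd5, a proton-pumping subunit, had 4009 and 1647 CPM in the controls and 5689 and 6755 CPM in the knockouts, and edgeR gave 1.14 on the log2 scale (SE 0.457) with an adjusted p of 0.343.

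The remaining mitochondrial members differed less. mt-Cytb had 7415 and 6676 CPM in the controls and 8914 and 9543 CPM in the knockouts (log2 fold change 0.39, SE 0.260). mt-Nd4, another proton-pumping subunit, had 3136 and 3049 CPM against 3767 and 4115 CPM (log2 fold change 0.35, SE 0.238). In mt-Nd2, also a pumping subunit, the groups overlapped, with 5139 and 2994 CPM in the controls and 4968 and 5121 CPM in the knockouts. mt-Nd6 had 250 and 526 CPM in the controls and 282 and 280 CPM in the knockouts, and its log2 fold change was the only one below 0 (-0.47, SE 0.340, edgeR adjusted p = 0.534). Both knockouts lay above both controls in 5 of these 7 members and below them in 0. Over all genes these shares were 23.6% higher and 20.8% lower.

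Among the nuclear subunits Ndufs7, a core subunit that holds the iron-sulfur cluster next to the quinone, had the smallest p in this comparison. Its levels were 37.9 and 83.1 CPM in Yap controls 1 and 2 against 34.5 and 36.5 CPM after Yap1 deletion (log2 fold change -0.77 with SE 0.337, adjusted p = 0.367 in edgeR). Ndufa13, also known as GRIM-19, stood at 52.7 and 116 CPM against 44.3 and 49.5 CPM (log2 fold change -0.84, SE 0.381). Ndufs6, an accessory subunit of the NADH-binding module, stood at 24.5 and 58.4 CPM against 23.6 and 24.4 CPM (log2 fold change -0.78, SE 0.378). In all 3 genes control 1 lay close to the knockouts and control 2 far above them.

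Other core subunits had log2 fold changes of -0.61 (Ndufs8, SE 0.335), -0.28 (Ndufv2, SE 0.301), -0.25 (Ndufv1, which binds NADH and FMN, SE 0.312) and -0.16 (Ndufs3, SE 0.311). Ndufs1 was an exception, with 85.6 and 77.5 CPM in the controls and 93.2 and 107 CPM in the knockouts (log2 fold change 0.29 with SE 0.186, adjusted p = 0.482 in edgeR). Ndufc2, a small membrane arm subunit, was the other, at 29.7 and 61.2 CPM in the controls and 40.1 and 56.2 CPM in the knockouts (log2 fold change 0.08, SE 0.334). By position in complex I, the median log2 fold change was -0.25 over the 7 core subunits, -0.49 over 7 accessory subunits of the NADH-binding module, -0.35 over 2 of the quinone module, -0.37 over 9 of the proximal and -0.50 over 10 of the distal membrane arm. Ndufa4 had 121 and 205 CPM in Yap controls against 99.4 and 120 CPM in knockouts (log2 fold change -0.57, SE 0.285). Of the 36 nuclear members, 1 had both knockouts above both controls and 5 had both below, where 23.6% and 20.8% of all genes did.

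**Figure D2:**
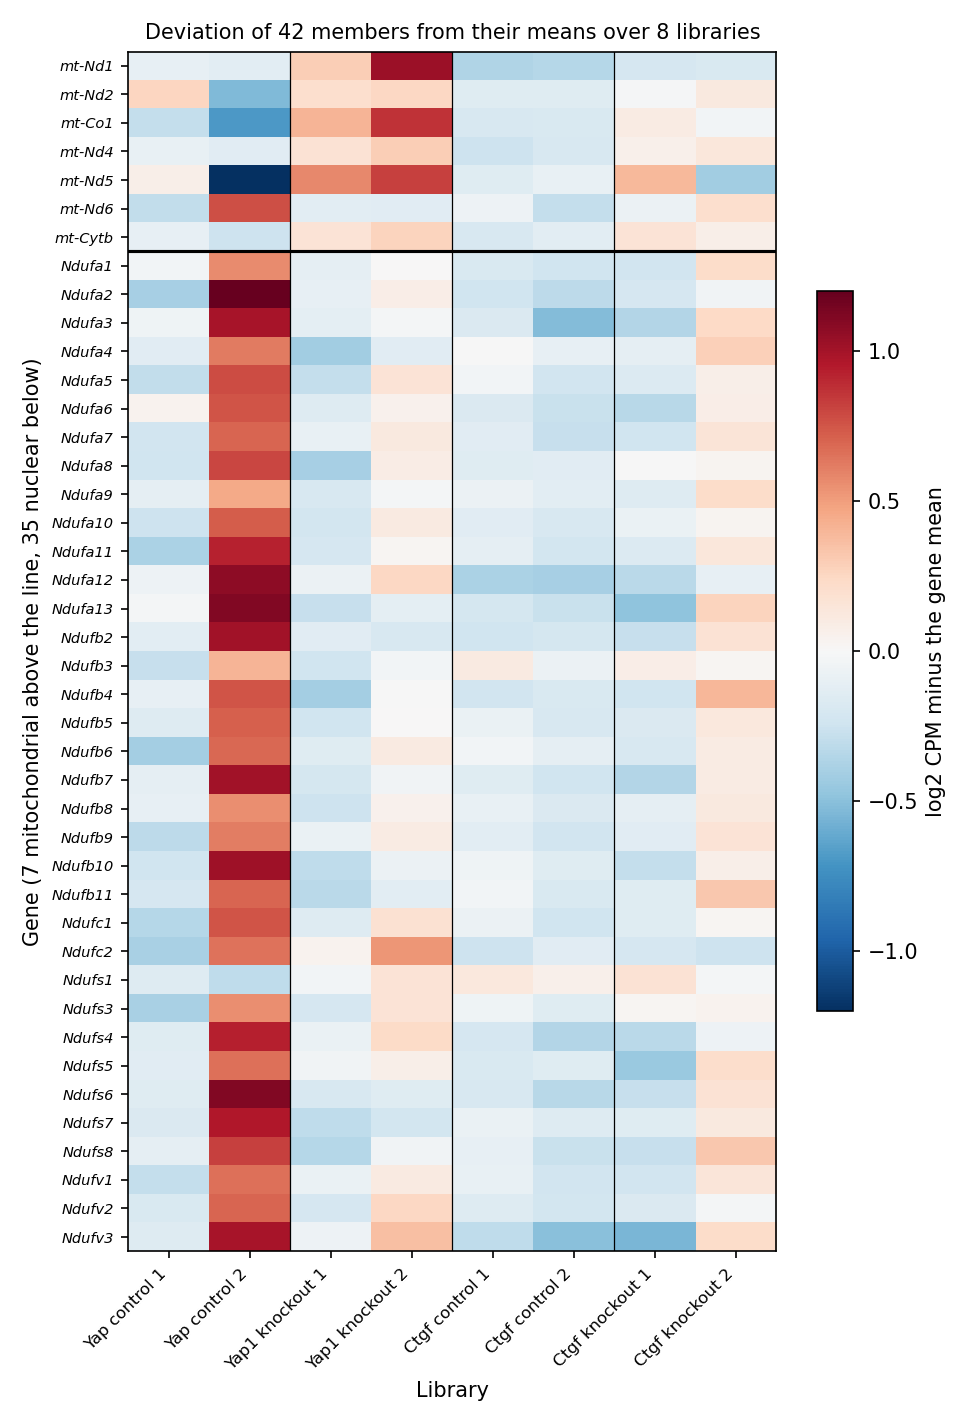
Deviation of 42 members from their own mean over the 8 libraries, in log2 CPM (red higher, blue lower), with the 7 well counted mitochondrial members above the line and 35 nuclear ones below. The column of Yap control 2 is red for the nuclear members other than Ndufs1 and blue for mt-Nd5, mt-Co1 and mt-Nd2.

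The nuclear values of Yap control 2 stood apart from those of its own replicate. Of 36 nuclear members 35 were higher in Yap control 2 than in Yap control 1, with a median log2 difference of 0.96, where the median of all genes was -0.04. In the mitochondrial members 1 of 7, mt-Nd6, was higher, and the median difference was -0.15. The other replicate pairs differed less in the nuclear members. The median of replicate 2 over replicate 1 was 0.22 in the Yap1 knockouts (35 of 36 higher), -0.09 in the Ctgf controls (5 of 36 higher) and 0.33 in the libraries labelled Ctgf knockout (33 of 36 higher).

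Without Yap control 2, leaving 1 control, the direction of the nuclear members turned. Their median log2 fold change in the Yap1 comparison became 0.12, and 23 of 36 were above 0. Ndufs7 went to -0.09, Ndufa13 to -0.17, Ndufs6 to -0.02 and Ndufc2 to 0.70 on the log2 scale. The mitochondrial median was 0.33, with 6 of 7 above 0, and mt-Co1 stood at 0.94, mt-Nd1 at 0.81 and mt-Nd5 at 0.64. mt-Nd6 turned from -0.47 to 0.17 and mt-Nd2 from 0.31 to -0.03. No member passed the edgeR test, and few of all genes did, in this fit with a lone control. With Yap control 2 as the lone control the picture was the reverse: 26 members passed, with mt-Co1 and mt-Nd5 higher and mt-Nd6 and 23 nuclear members lower, in a fit that then called 1788 genes higher and 1940 lower of 14457. These fits take the lone control to vary like the other groups.

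**Figure D3:**
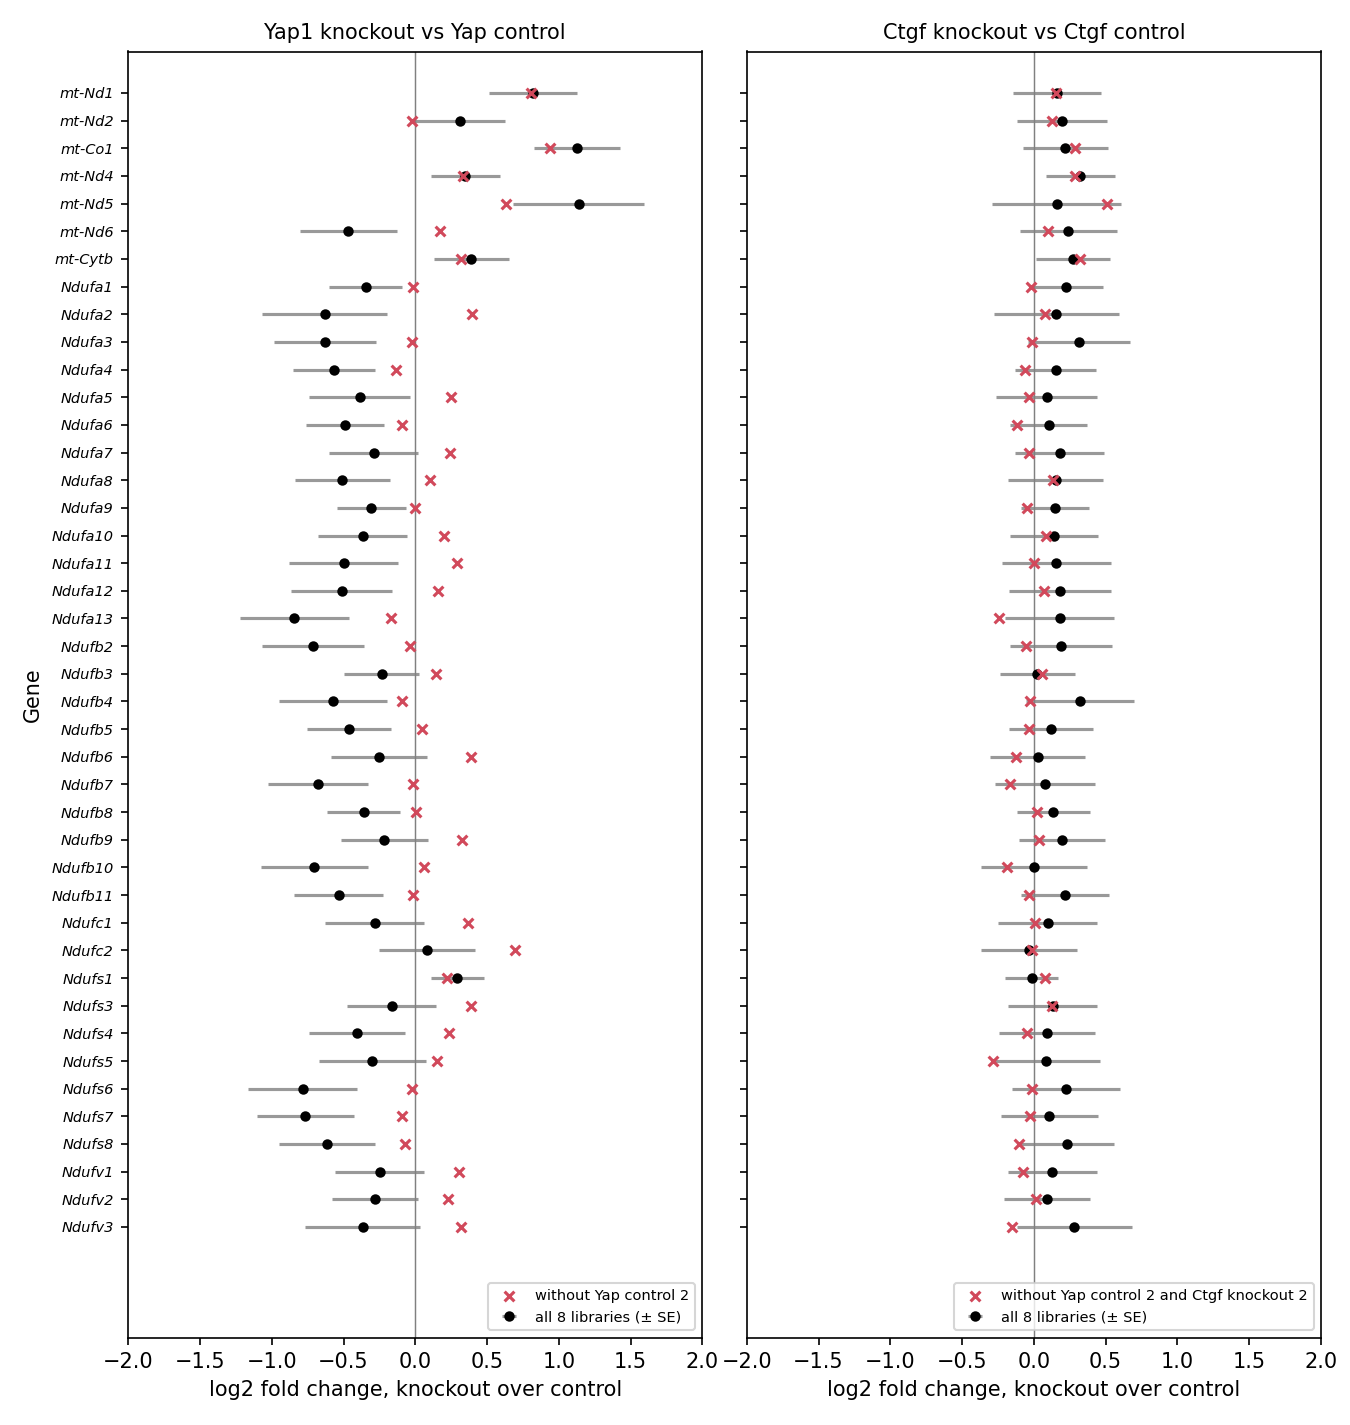
Log2 fold change of tested members (dots, with SE) for Yap1 knockout over Yap control and Ctgf knockout over Ctgf control, from 2 libraries a group. Crosses give the same without Yap control 2 (left) or without it and the library labelled Ctgf knockout 2 (right), and in the left panel most nuclear crosses sit at or above 0, around a median of 0.12.

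Transcript length moved with the difference between the Yap controls. Over all genes, Yap control 2 lay above the gene mean by a median of 0.59 (log2) in transcripts of up to 750 bases and had a median of -0.53 in those over 6000 bases, and the other 7 libraries ran from -0.16 to 0.04 and from -0.15 to 0.23 in these classes. The Spearman correlation between length and the difference of the Yap controls was -0.518 across 13723 genes of the same library pair. It was -0.066 across the 36 nuclear members and -0.75 across the 7 mitochondrial members, which is a description of genes that share their libraries. The mitochondrial extremes were mt-Nd6 (519 bases, difference 1.07) and mt-Nd5 (1824 bases, difference -1.28). Counts of mt-Nd6 per 100 of mt-Nd5 were 31.9 in Yap control 2, 12.4 in the library labelled Ctgf knockout 2 and 4.14 to 8.51 in the other libraries. The part of transcript length or of RNA quality in these differences was not tested.

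**Figure D4:**
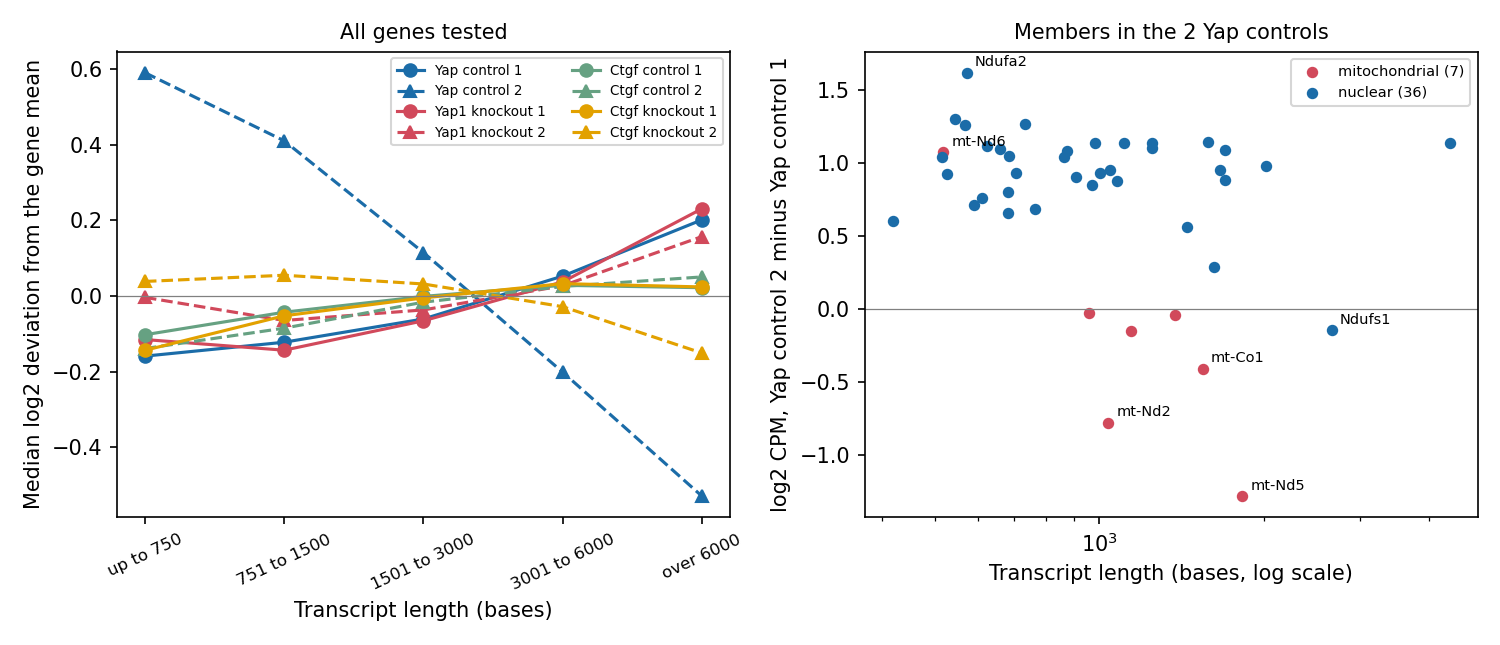
Median log2 deviation of all genes by transcript length in each library (left), and the log2 difference of Yap control 2 minus Yap control 1 for 43 members against transcript length on a log axis (right). Yap control 2 runs from 0.59 in the shortest to -0.53 in the longest class, and the mitochondrial points run from 1.07 (mt-Nd6) to -1.28 (mt-Nd5).

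In the Ctgf comparison the members of both genomes lay slightly above the controls, and none passed. By edgeR's quasi-likelihood test 0 of 44 members were called, where 0% of all genes were. At an unadjusted p under 0.05 there were 0 members, against 1.98% of all genes, and DESeq2 called 0, against 0.0286%. The log2 fold change was above 0 in 7 of 7 well counted mitochondrial members (median 0.22) and in 34 of 36 nuclear members (median 0.14), beside a median of 0.01 over all genes. mt-Nd4 had 2813 and 2921 CPM in Ctgf controls against 3499 and 3680 CPM in the libraries labelled knockout (log2 fold change 0.32 with SE 0.238, adjusted p = 1 in edgeR). mt-Cytb stood at 6967 and 7299 CPM against 8894 and 8328 CPM (log2 fold change 0.27, SE 0.260). In both genes the groups did not overlap. mt-Nd5, with 3457 and 3582 CPM against 5004 and 2849 CPM, overlapped and came to 0.16 on the log2 scale (SE 0.452).

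Both libraries labelled knockout lay above both controls in 5 of these 7 mitochondrial and in 6 nuclear members and below in 0, where 15.5% of all genes lay above and 16.8% below. Among the nuclear members, Ndufa1 had 30.5 and 29.3 CPM against 29.5 and 40.4 CPM, and Ndufa3 had 34.5 and 27.1 CPM against 30.5 and 46.0 CPM. In both genes the library labelled Ctgf knockout 2 was the highest of the 4. Ndufc2 and Ndufs1 were the nuclear members below 0, at -0.04 (SE 0.334) and -0.02 (SE 0.186) on the log2 scale. Without the library labelled Ctgf knockout 2 and Yap control 2 the nuclear median became -0.03 with 13 of 36 above 0, whereas the mitochondrial median was 0.28 with 7 of 7 above 0, and 0 members passed.

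Whether the knockouts differed in their effects was tested as an interaction, and 0 of 44 members passed by edgeR's quasi-likelihood test, where 0% of all genes did. At an unadjusted p under 0.05 there were 0 members, against 8.87% of all genes, and DESeq2 called 0, against 1.06%. The nuclear median of the Yap1 effect minus the Ctgf effect was -0.58 (2 of 36 above 0), and the mitochondrial median was 0.12 (6 of 7 above 0). mt-Co1 had the smallest p, with a difference of 0.90 (SE 0.419, edgeR adjusted p = 0.570), followed by Ndufa13 at -1.02 (SE 0.537). Ndufs6 stood at -1.01 (SE 0.534) and Ndufa3 at -0.94 (SE 0.502), while Ndufs1 and Ndufc2 were above 0, at 0.31 (SE 0.263) and 0.12 (SE 0.472). Without Yap control 2 and the library labelled Ctgf knockout 2 the nuclear median was 0.10 and the mitochondrial median 0.07.

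Between the control groups, 2.38% of all genes passed the edgeR test but 0 of 44 members did. At an unadjusted p under 0.05 there were 4 members, against 22.5% of all genes, and DESeq2 called 0, against 10.9%. The log2 level of Yap over Ctgf controls was above 0 in 35 of 36 nuclear members (median 0.51) and in 4 of 7 mitochondrial ones (median 0.06). Ndufa12, an accessory subunit of the NADH-binding module, had the smallest p, with 15.02 and 32.97 CPM in the Yap controls and 12.0 and 11.9 CPM in the Ctgf controls (log2 difference 1.00 with SE 0.356, adjusted p = 0.157 in edgeR). Ndufa3 and Ndufa6 followed, with log2 differences of 0.90 (SE 0.357) and 0.66 (SE 0.272). Ndufs1 went the other way, at 85.6 and 77.5 CPM against 104 and 99.7 CPM (log2 difference -0.32, SE 0.186). Without Yap control 2 the nuclear median was -0.03, with 15 of 36 above 0, and the mitochondrial median was 0.12, with 5 of 7 above 0. Markers of other cells differed between the control groups as well. The 6 stellate cell markers, all detected, summed to 770 and 502 CPM in the Yap controls against 121 and 119 CPM in the Ctgf controls, with 4 of 6 called higher by edgeR and a median log2 difference of 2.52. The 5 endothelial markers, also all detected, summed to 386 and 290 CPM against 167 and 215 CPM (median log2 difference 0.94, 0 called). Their part in the members' values was not tested.

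The balance of the genomes within complex I was read in each library as summed counts of the mt-Nd genes over summed counts of the 35 Nduf genes other than Ndufa4, a ratio that needs no scaling between libraries. It was 10.8 and 4.35 in the Yap controls, 13.01 and 13.96 in the Yap1 knockouts, 8.74 and 9.43 in the Ctgf controls, while those labelled Ctgf knockout had 11.02 and 8.25. The group means were 7.56 ± 4.54, 13.5 ± 0.671, 9.08 ± 0.487 and 9.64 ± 1.96 (SD, n = 2 each). Both Yap1 knockouts lay above the other 6 libraries. The Yap controls differed from each other by more than either knockout differed from control 1. Yap control 2 was the lowest library, with a counting interval (95%, Wilson) of 4.31 to 4.38, far narrower than the distance to its replicate. The difference of mean log2 ratios, knockout minus Yap control, was 0.98 with all libraries, 0.32 without Yap control 2 and 1.63 without Yap control 1. No p is given for this score over chosen genes.

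**Figure D5:**
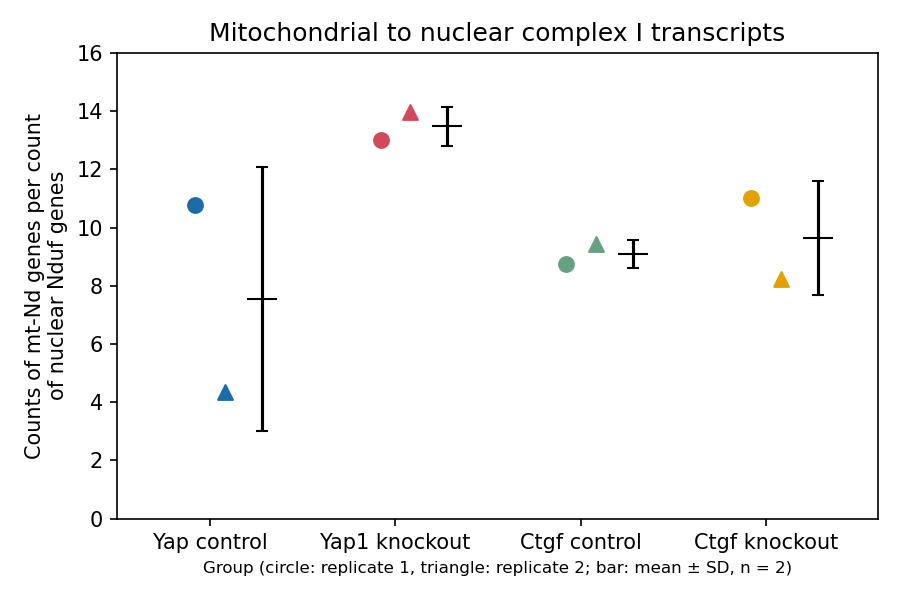
Counts of mt-Nd genes per count of nuclear Nduf genes in each library (circles replicate 1, triangles replicate 2), with the group mean and SD from 2 libraries. The Yap1 knockouts sit at 13.01 and 13.96 and the Yap controls at 10.8 and 4.35.

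The low value of Yap control 2 came from both terms. Its mitochondrial members took 2.12% of counts (95% Wilson interval 2.12% to 2.13%) and its Nduf members 0.286% (0.284% to 0.288%), where the other libraries ran from 2.74% to 4.58% and from 0.167% to 0.202%. In Yap1 knockout 2 the mitochondrial share was the highest, 4.58% (4.57% to 4.59%). That library and Yap1 knockout 1 also held the highest sums of 8 neutrophil markers (508 and 1024 CPM, against 70.5 to 258 CPM in the other 6) and of 7 erythroid markers (403 and 467 CPM, against 95.3 to 229 CPM). All neutrophil and erythroid markers were detected, and their part in the mitochondrial values was not tested.

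Other genes of the chain were read from 7 lists, of complex I assembly factors, nuclear subunits of complexes II to V, factors that maintain and express mitochondrial DNA, and regulators of mitochondrial biogenesis. In the Yap1 comparison 0 of their 87 genes passed by edgeR's quasi-likelihood test, where 0.0286% of all genes did. At an unadjusted p under 0.05 there were 5, against 13.8% of all genes, and DESeq2 called 1, Ppargc1a, against 3.82%. The edgeR count depended on which Yap control was left out. The median log2 fold change of the 87 was -0.16, and 0.14 without Yap control 2 and the library labelled Ctgf knockout 2. The median log2 fold change was -0.17 over 9 nuclear genes of complex III, -0.31 over 10 of complex IV and -0.34 over 16 of complex V, beside 0.06 over the 4 genes of complex II. Without Yap control 2 and the library labelled Ctgf knockout 2 these medians became 0.32, 0.20, 0.16 and 0.29, so the direction in complexes III to V turned as it did in the Nduf genes. The 15 assembly factors, which help build complex I and are not part of it, had a median of -0.27, and -0.14 without both libraries.

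Among the lists, the smallest p per list in the Yap1 comparison fell to Timmdc1 (an assembly factor), Sdha, Uqcr10, Cox7c, Atp5g1, Twnk and Ppargc1a. Cox7c and Atp5g1 stood below 5 CPM in every library and had log2 fold changes of 0.65 (SE 0.323) and -0.64 (SE 0.314). Twnk, the mitochondrial DNA helicase, had 23.8 and 35.8 CPM in Yap controls against 17.9 and 19.6 CPM after Yap1 deletion (log2 fold change -0.66 with SE 0.231, adjusted p = 0.288 in edgeR). Its log2 fold change was -0.34 without Yap control 2 and -0.96 without Yap control 1, where edgeR called it (adjusted p = 0.0106). Timmdc1 stood at 29.5 and 31.7 CPM against 24.3 and 18.2 CPM (log2 fold change -0.53, SE 0.211). Uqcr10, a small subunit of complex III, stood at 68.0 and 183 CPM against 67.3 and 82.9 CPM, again with control 2 apart. Its log2 fold change turned from -0.74 to 0.14 without Yap control 2, and without Yap control 1 it was called at -1.31 (edgeR adjusted p = 0.00852). Sdha, which oxidises succinate in complex II, stood at 240 and 245 CPM against 254 and 305 CPM (log2 fold change 0.21, SE 0.201).

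Ppargc1a, the coactivator PGC-1alpha that drives mitochondrial biogenesis, had 26.6 and 25.3 CPM in Yap controls against 49.0 and 54.7 CPM in Yap1 knockouts, and 34.11 and 44.98 CPM in Ctgf controls against 19.4 and 23.9 CPM in those labelled Ctgf knockout. Its groups did not overlap in either comparison, and the knockouts lay on opposite sides of their controls. The log2 fold changes were 1.00 (SE 0.218, edgeR adjusted p = 0.153) for Yap1 and -0.87 (SE 0.218, edgeR adjusted p = 1) for Ctgf. The difference between these effects was 1.87 (SE 0.308, edgeR adjusted p = 0.271). DESeq2 called the Yap1 effect (adjusted p = 0.00817) and the difference (adjusted p = 0.000387). Without Yap control 2 and the library labelled Ctgf knockout 2 edgeR called both as well, at 0.96 (adjusted p = 0.0449) and 1.99 (adjusted p = 0.0423), and with Yap control 2 as the lone control at 1.01 (adjusted p = 0.0299) and 1.87 (adjusted p = 0.0249). Leaving out Yap control 2 alone gave no call, at 0.96 (edgeR adjusted p = 0.173) and 1.83 (edgeR adjusted p = 0.159). The fit without both libraries called 530 genes higher and 408 lower of 14261 for Yap1, so more genes passed in it at large.

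Tfam, which packages mitochondrial DNA and starts its transcription, had 42.01 and 45.32 CPM in Yap controls against 35.0 and 38.2 CPM in Yap1 knockouts (log2 fold change -0.25 with SE 0.180, adjusted p = 0.523 in edgeR). Polrmt, the mitochondrial RNA polymerase, stood at 32.4 and 51.6 CPM against 30.5 and 26.8 CPM (log2 fold change -0.55 with SE 0.259, adjusted p = 0.394 in edgeR). Both knockouts lay below both controls in each gene, opposite in sign to the mitochondrial median. The Polrmt value rested on the Yap controls: it was -0.18 without Yap control 2 and -0.87 without Yap control 1, where edgeR called it (adjusted p = 0.0236). Tfam stood at -0.20 and -0.34 in these fits, with no call. In the Ctgf comparison the log2 fold changes of Tfam and Polrmt were 0.08 (SE 0.180) and 0.13 (SE 0.258).

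In the Ctgf comparison the same 87 genes had a median log2 fold change of 0.09 (0.03 without Yap control 2 and the library labelled Ctgf knockout 2). By edgeR's quasi-likelihood test 0 were called, where 0% of all genes were. At an unadjusted p under 0.05 there was 1 (Ppargc1a), against 1.98% of all genes, and DESeq2 called 0, against 0.0286%. Behind Ppargc1a, the smallest p per list fell to Ndufaf6, an assembly factor (log2 fold change 0.30, SE 0.274), and Sdha (0.17, SE 0.201). In the remaining lists it fell to Uqcrq of complex III (0.24, SE 0.417), Cox8a of complex IV (0.22, SE 0.274), Atp5g1 (0.37, SE 0.312) and Tfb1m (0.60, SE 0.435). Tfb1m, an rRNA methyltransferase of the mitochondrion, had 6.69 and 4.75 CPM in the Ctgf controls against 12.3 and 5.02 CPM in those labelled knockout. Its groups overlapped, with Ctgf knockout 1 apart.

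In the difference between the effects edgeR called 0 of the 87 genes, where 0% of all genes were called. At an unadjusted p under 0.05 there were 2 (Ppargc1a and Twnk), against 8.87% of all genes, and DESeq2 called 1, against 1.06%. The edgeR count depended on which Yap control was left out. The median of the 87 was -0.21, and 0.09 without Yap control 2 and the library labelled Ctgf knockout 2. The smallest p per list again fell to Uqcr10 (log2 difference -0.86, SE 0.569), Cox7c (0.81, SE 0.457), Atp5g1 (-1.004, SE 0.443) and Twnk (-0.88, SE 0.324), and also to the assembly factor Tmem126b (-0.85, SE 0.372) and to Sdhc, a membrane subunit of complex II (-0.23, SE 0.359).

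Between the control groups edgeR called 0 of the 87 genes, against 2.38% of all genes. At an unadjusted p under 0.05 there were 9, against 22.5% of all genes, and DESeq2 called 3, against 10.9%. The edgeR count depended on which libraries were left out. The median log2 difference of the 87 was 0.10, and -0.15 without Yap control 2 and the library labelled Ctgf knockout 2. The smallest p was that of Atpif1, the inhibitor of ATP synthase, at 22.5 and 31.4 CPM in the Yap controls and 8.86 and 10.2 CPM in the Ctgf controls (log2 difference 1.5 with SE 0.328, adjusted p = 0.0591 in edgeR). Cox7a2, a small subunit of complex IV, followed at 127 and 164 CPM against 82.9 and 80.1 CPM (log2 difference 0.83 with SE 0.225, adjusted p = 0.0927 in edgeR). Without Yap control 2 and the library labelled Ctgf knockout 2 these differences were 1.24 and 0.64 on the log2 scale. Polg, the mitochondrial DNA polymerase, was at 74.5 and 73.1 CPM in the Yap controls against 122 and 128 CPM in the Ctgf controls (log2 difference -0.76 with SE 0.221, adjusted p = 0.107 in edgeR), and it lay at -0.75 without Yap control 2. Esrra, the nuclear receptor ERR-alpha, was at 37.4 and 48.1 CPM against 28.5 and 28.6 CPM (log2 difference 0.58, SE 0.194). The other lists were led by the assembly factor Ndufaf4 (-0.53, SE 0.243), Sdhd of complex II (0.48, SE 0.251) and Uqcrq (0.96, SE 0.420), and Uqcrq stood at 0.07 without Yap control 2. Without both libraries Ndufaf4 stood at -0.64 and Esrra at 0.39.

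Ndufa4l2, a paralogue of Ndufa4 whose name lies outside the rule and which is known as a hypoxia-induced gene, was the exception to these small values. Its level was 1.24 and 1.07 CPM in Yap controls against 11.2 and 12.1 CPM in Yap1 knockouts, and 0.351 and 0.313 CPM in Ctgf controls against 0.355 and 0.445 CPM in those labelled Ctgf knockout. Both Yap1 knockouts lay above the other 6 libraries, and the gene rose by 3.32 on the log2 scale in edgeR (SE 0.319, adjusted p = 0.0249). It also passed between the control groups, higher in the Yap line by 1.80 on the log2 scale (SE 0.344, edgeR adjusted p = 0.0452). The Yap1 call held without Yap control 2 (3.22, adjusted p = 0.0396) and was lost without either Yap1 knockout or any single Ctgf line library (adjusted p = 0.0759 to 0.367), at log2 values of 3.27 to 3.38. It was also lost in a fit of the Yap line alone (adjusted p = 0.274 in edgeR). The call between the control groups was lost without either Yap1 knockout or either Ctgf control. It was also lost in a fit of the control groups alone (adjusted p = 0.149 in edgeR). Ndufa4 itself had a log2 fold change of -0.57 in the Yap1 comparison.

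Promoters, which the rule did not use, were searched for 3 motifs. RefSeq promoters (GRCm38.p6, 250 bases before to 50 after the start) were matched for 32 of the 36 nuclear members. A gene with several promoters counted if any of them held the motif. The core AAGATGGC of the factor YY1 was found on either strand in 7 of 32 members (21.9%), against 3.19% of 27025 genes. The 7 were Ndufa3, Ndufa9, Ndufb8, Ndufc1, Ndufs4, Ndufs6 and Ndufs7. The core CCGGAAG of ETS factors such as GABP was in 4 of 32 (12.5%), against 9.93%. The palindromic core of NRF-1, a factor known for nuclear respiratory genes, is spelled by the capitals of the Ndufa11 promoter and was in 1 of 32 (3.12%), against 1.07%. Of the 32 members, 20 held none of the 3 motifs in any matched promoter. The letters of no motif contain those of another. The promoters of Ndufs7, the nuclear member with the smallest p in the Yap1 comparison, and of Ndufa11, the member with the NRF-1 core, show these matches in capitals, 5′ to 3′ on the gene's strand.
Ndufs7 (chr10:80249199-80249498, plus strand, YY1 core in capitals): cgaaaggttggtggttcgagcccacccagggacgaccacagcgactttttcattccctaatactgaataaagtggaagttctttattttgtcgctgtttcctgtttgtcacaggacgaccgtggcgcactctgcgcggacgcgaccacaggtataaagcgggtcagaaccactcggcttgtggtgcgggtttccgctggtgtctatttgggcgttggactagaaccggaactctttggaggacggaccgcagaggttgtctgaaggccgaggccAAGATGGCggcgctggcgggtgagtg
Ndufa11 (chr17:56717512-56717811, plus strand, NRF-1 core in capitals): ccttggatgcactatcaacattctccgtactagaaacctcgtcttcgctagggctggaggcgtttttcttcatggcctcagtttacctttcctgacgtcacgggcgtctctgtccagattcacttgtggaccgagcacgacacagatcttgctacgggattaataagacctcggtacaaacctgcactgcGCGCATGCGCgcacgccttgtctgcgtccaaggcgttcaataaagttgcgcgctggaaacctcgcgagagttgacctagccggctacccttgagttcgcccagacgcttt
A match is a run of letters and not a bound site, and no factor was measured here.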

How the data were processed

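The authors deposited whole-number read counts per gene symbol for 8 liver libraries. The submitters' processing notes name HTSeq 0.6.1, STAR 2.6.0a, bcl2fastq 2.20.0.422 and the build mm10/GRCm38. The sources used here do not give the annotation, the strand setting or the treatment of reads with several matches, so values of copied and overlapping genes are uncertain. The deposited counts were tested with edgeR 4.0.16 in R 4.3.3 (quasi-likelihood F test, TMM, filterByExpr, Benjamini-Hochberg over 13999 genes, threshold 0.05), with all 8 libraries in a single fit of 4 groups (4 residual degrees of freedom). SE was derived from each log2 fold change and its F value. CPM was computed on TMM-scaled totals, and per kilobase on GENCODE transcript lengths of GRCm38. Windows of 50 bases were matched exactly on both strands of the GENCODE transcripts.

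The code was tested on simulated data. No label says that replicates were separate animals, so p-values reflect spread between samples that may be technical. Without molecular identifiers, intervals and floors hold for counting error alone. Alternatives were RLE and upper-quartile scaling, scaling without mitochondrial genes, DESeq2 1.42.0, other low-count filters, only the compared libraries, a replicate block and libraries left out. Members, lists and tests were chosen with earlier results of these data known. Genes named were all mitochondrial members, the nuclear core subunits, Ndufa4, the highest and lowest nuclear member per kilobase, the 3 nuclear members with the smallest p per direction and comparison, of each other list any called gene or else that with the smallest p per comparison, and Ndufa4l2, Tfam, Ppargc1a and Polrmt. Ndufb9 was named outside this rule, as were Ndufa11 and the other genes listed for a motif. A gene that the rule names is not reported here.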

Additional observations from a re-analysis of the deposited data

How the results depend on the processing

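With 2 libraries a group and a shared spread, a single library decides several values. Leaving out a single library could turn the sign of the nuclear median in each comparison. Under RLE or upper-quartile scaling, scaling without mitochondrial genes, other filters, only the compared libraries and the replicate block, 0 members were called in any comparison. With only the compared libraries, and in the Ctgf comparison under all these settings, 0 of all genes were called, so 0 members tells little there. RLE scaling called 3 of all genes higher and 1 lower for Yap1, and 171 and 153 between the control groups. Upper-quartile scaling called 244 and 114 between the control groups. DESeq2 called 1 member in the Yap1 comparison, against 3.82% of all genes. Upper-quartile scaling shifted the median of all genes between the control groups to 0.18 (log2).

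Medians are given below for the 7 mitochondrial members with over 1000 counts and for the Nduf genes. The mitochondrial median under upper-quartile scaling was 0.237 in the Ctgf comparison, 0.0479 in the difference between the effects and 0.193 between the control groups, and it was 0.225 in the Ctgf comparison when mitochondrial genes were left out of the scaling. Without both Yap control 2 and the library labelled Ctgf knockout 2, the Nduf median was 0.122 in the Yap1 comparison, -0.0293 in the Ctgf comparison, 0.104 in the difference and -0.0281 between the control groups, and the mitochondrial median of the Ctgf comparison was 0.284. Over single libraries left out, members called ran from 0 to 26 (Yap1), 0 to 17 (difference) and 0 to 30 (control groups), each highest without Yap control 1, and stayed at 0 for Ctgf. The mitochondrial median ran from 0.331 to 0.724 (Yap1), 0.207 to 0.284 (Ctgf), 0.0449 to 0.520 (difference) and -0.0725 to 0.124 (control groups). The Nduf median ran from -0.859 to 0.124 (Yap1), -0.0296 to 0.306 (Ctgf), -0.969 to 0.0050 (difference) and -0.0292 to 0.928 (control groups). Without Yap control 1, far more of all genes passed than with all libraries, in each comparison but that of Ctgf. Calls rose at large there, and a larger share of the members than of all genes passed, in a fit with a lone Yap control. The cause of these ranges was not tested.

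Of 2291 values of named genes under alternatives, 102 changed sign, 81 of them where Yap control 2 or the library labelled Ctgf knockout 2 was left out, and 0 of those were called values. With the replicate number as a block, edgeR called 12 genes higher and 7 lower of all genes for Yap1 and 212 and 237 between the control groups, where the fit without it called 3 and 1, and 178 and 155. The block called 0 genes for Ctgf and for the difference. Under the block Ndufa4l2 no longer passed between the control groups (edgeR adjusted p = 0.0702) and Atpif1 did (0.0386). Same-numbered libraries deviated together with correlations of 0.154 in the Yap line and 0.103 in the Ctgf line, from 2 pairs each. By title, Yap control 2 belongs to a numbered knockout, and that number is in the description of Yap1 knockout 2, whereas the number in the title of Yap control 1 is that of its own description. No label says that a number marks a shared litter, batch or day, so pairing is not established. Read as a mean of log2 counts, or without mt-Nd6, mt-Nd4 and mt-Nd4l, the complex I ratio was again highest in both Yap1 knockouts and lowest in Yap control 2.

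Counting intervals of the complex I ratio were narrower than the distance between replicates in each group. No such interval was computed for single well counted members. The mitochondrial genes inside the copied stretch, with 0 to 30 counts, support no comparison and stay out of the medians.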
